A study of Mus musculus with 12 samples.

Results

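The 10 genes described here, Trem2, Gpnmb, Cd9, Itgax, Mmp12, Lgals3, Cd63, Lpl, Fabp5 and Ctsd, are markers of lipid-associated macrophages and of phagocytic cells. They were taken by name from the 41743 genes of both deposited expression tables, and all 10 were found. RNA was sequenced from whole livers of 12 female mice aged 3 to 4 months, in 4 groups of 3 mice. YAPKO mice carried Foxa3-Cre, Yap1 fl/fl and a ROSA-stop-EYFP reporter on a C57BL/6 background, and were compared with WT littermates of that background (WT C57BL/6). YAPKO TAZHET mice were on a mixed C57BL/6-FVB background and were compared with WT littermates of the mixed background (WT mixed). In them Foxa3-Cre was used to delete both copies of Yap1 and 1 copy of Wwtr1, the gene for TAZ. Foxa3-Cre acts in the foregut endoderm, from which hepatocytes and bile ducts arise, and the question was how liver gene expression adapts to these deletions. The loss of 1 Wwtr1 copy, the floxed Yap1 line, the strain background and the set of animals differ together between the models and cannot be told apart.

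Macrophages that take up lipid and dying cells carry the receptor TREM2 on their surface and switch on a shared set of genes for surface proteins, lysosomal digestion and lipid handling. In the liver such cells are known from fatty, cholestatic and fibrotic disease, where they stand beside the resident Kupffer cells. Several of the 10 genes are also active in other cells: CD9, CD63 and cathepsin D in many cell types, LPL in fat and muscle, galectin-3 in epithelia and FABP5 in epithelia and fat. In whole-liver RNA, fewer cells of a type and less RNA per cell cannot be told apart, and the same holds for more cells and more RNA per cell.

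The deleted gene checked the labels for Yap1. It was at 28.2 to 33.2 TPM (a length-corrected share of all transcripts) in the 6 WT livers, at 1.67 to 3.72 TPM in YAPKO and at 8.63 to 11.5 TPM in YAPKO TAZHET livers. Yap1 RNA thus remained higher in YAPKO TAZHET, with log2 fold changes of -1.93 there and -3.5 in YAPKO. This difference between the models adds to those named above, and its source was not tested. Wwtr1 was not lower in the livers labelled YAPKO TAZHET, at 11.5 to 14.1 TPM against 7.73 to 8.38 TPM in WT mixed and 13.3 to 16.7 TPM in YAPKO, so the whole-liver level did not check that part of the label. Hepatocyte markers were abundant in every liver: the 9 measured summed to 92800 to 114000 TPM in WT and to 80100 to 96100 TPM in the model livers. Because TPM is a share of a total, the values were also scaled by trimmed means before testing, with factors of 0.852 to 0.947 in WT and 1.075 to 1.219 in the model livers. This moved the median log2 fold change of all genes from 0.28 to -0.04 in YAPKO and from 0.24 to -0.04 in YAPKO TAZHET.

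In both models, 9 of the 10 genes were higher than in WT littermates, and Fabp5 was the exception. On the log2(scaled TPM + 1) scale the largest rises were those of Lpl and Cd63, followed by Trem2 and Cd9. This order depends on the constant, and with 0.1 in place of 1 Gpnmb (5.50 and 5.13 in YAPKO and YAPKO TAZHET) and Mmp12 (5.04 and 4.99) had larger log2 fold changes than Lpl (4.57 and 4.44). In YAPKO livers Lpl had rank 13 and Cd63 rank 21 among the log2 fold changes of 11704 genes, and in YAPKO TAZHET livers ranks 14 and 17 of 11741. The test was limma on log2(scaled TPM + 1) with Benjamini-Hochberg adjustment over all tested genes and a threshold of 0.05. By this test 18.8% of all genes were higher in YAPKO and 19.2% in YAPKO TAZHET, and 17.9% and 19% were lower. The same 9 genes had scaled values in all 3 model livers above those of all 3 WT littermates, which held for 24.9% of all genes in YAPKO and 24.5% in YAPKO TAZHET. Trem2, Gpnmb, Itgax and Mmp12 reached the 1 TPM needed for testing in 2, 0, 0 and 0 of the 6 WT livers and in all 6 model livers. They entered the fits through the livers in which they were high, so the count of 9 is a description. Their own adjusted p-values against WT are a description for the same reason. The same holds for list counts given further on, which include genes that entered a fit in this way. Those lists also share genes, among them Ctsk, Cd68, Tyrobp and Apoe, so their counts partly repeat each other. Of the 6 genes that were at or above 1 TPM in every liver, Cd9, Lgals3, Cd63, Lpl and Ctsd rose in each model.

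**Figure D1:**
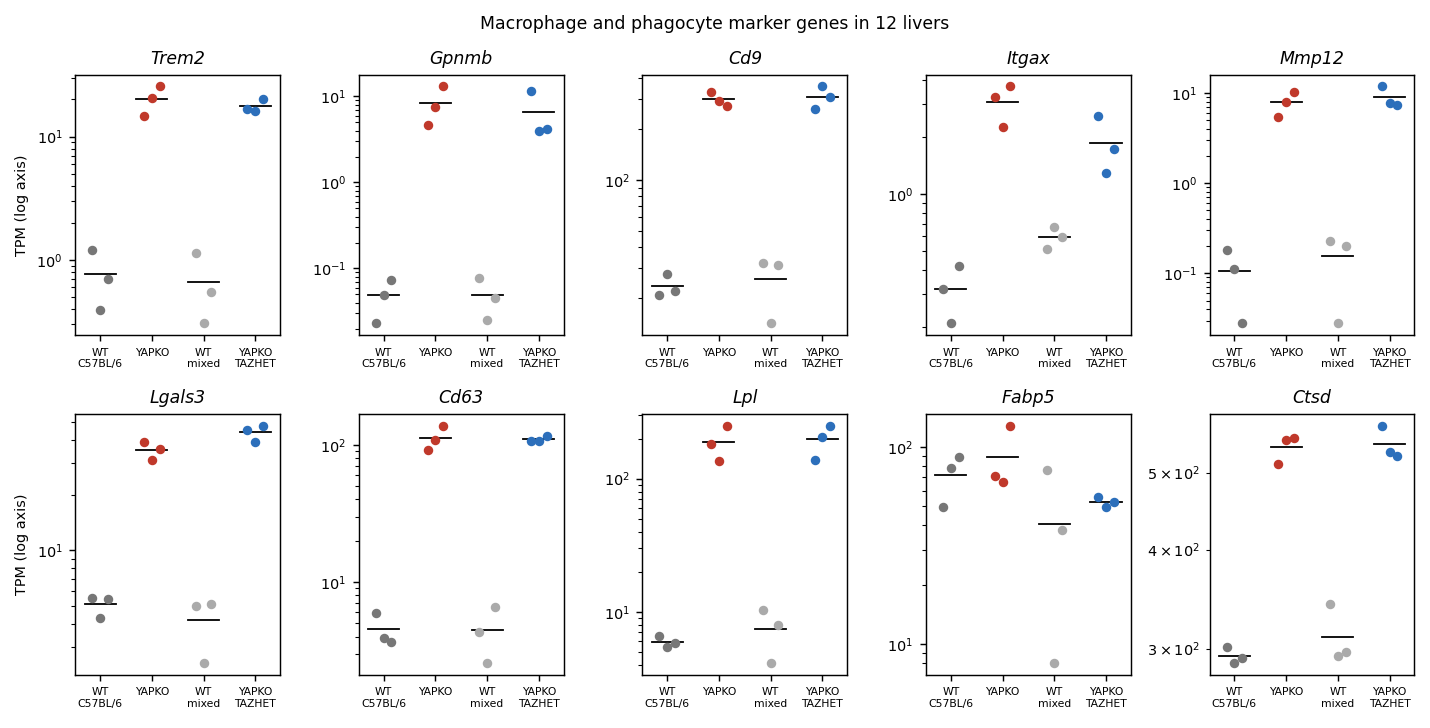
TPM of each gene on a log axis in the 12 livers, by group, with a point for each mouse and a line at the mean of 3. For 9 genes every model liver lies above every WT littermate, and for Fabp5 the groups overlap, with the WT mixed livers spread from 8.05 to 76.1 TPM.

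The promoters of the genes with the lowest WT levels, Trem2, Gpnmb, Itgax and Mmp12, are shown because these genes were nearly silent in WT liver. RefSeq promoter sequences on GRCm38.p6 were matched for 8 of the 10 genes, not for Lpl and Fabp5, and the 250 bases before each RefSeq start site were searched on both strands. The motifs were AP-1 (TGANTCA), E-box (CACGTG), TEAD (GGAATG), ETS (GAGGAAGT) and the core promoter box spelled TATAAA, and no matches overlapped in these windows. Capitals mark a match. The windows lie on the plus strand at chr17:48346151-48346400 (Trem2), chr6:49036268-49036517 (Gpnmb), chr7:128129300-128129549 (Itgax) and chr9:7344147-7344396 (Mmp12). They are placed by the RefSeq start site, so that the Itgax and Mmp12 windows hold 3 and 16 bases of an annotated exon, the Gpnmb window ends short of the gene start in the tables, and for Gpnmb and Mmp12 the bases after the window were not found in a GENCODE M21 transcript of the same gene.
Trem2: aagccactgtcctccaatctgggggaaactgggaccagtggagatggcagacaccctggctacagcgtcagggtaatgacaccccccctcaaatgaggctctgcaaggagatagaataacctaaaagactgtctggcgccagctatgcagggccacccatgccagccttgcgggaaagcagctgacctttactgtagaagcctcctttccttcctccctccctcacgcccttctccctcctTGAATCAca
Gpnmb: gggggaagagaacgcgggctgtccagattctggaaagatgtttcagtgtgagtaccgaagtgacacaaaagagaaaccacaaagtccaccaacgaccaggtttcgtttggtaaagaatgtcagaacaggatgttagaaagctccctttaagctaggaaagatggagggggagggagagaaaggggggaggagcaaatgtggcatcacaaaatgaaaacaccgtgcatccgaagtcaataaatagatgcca
Itgax: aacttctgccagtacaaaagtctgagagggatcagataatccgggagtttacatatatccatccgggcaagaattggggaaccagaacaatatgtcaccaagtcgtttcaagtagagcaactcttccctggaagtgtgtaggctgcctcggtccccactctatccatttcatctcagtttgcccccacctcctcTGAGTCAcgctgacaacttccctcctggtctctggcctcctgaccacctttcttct
Mmp12: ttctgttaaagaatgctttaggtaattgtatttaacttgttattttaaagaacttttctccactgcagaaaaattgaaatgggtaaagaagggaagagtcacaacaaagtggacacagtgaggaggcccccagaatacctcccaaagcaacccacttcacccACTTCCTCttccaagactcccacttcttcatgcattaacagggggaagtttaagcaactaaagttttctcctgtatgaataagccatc
An AP-1 match began 9 bases before the Trem2 start site and 56 bases before that of Itgax, and 6.7% of 32851 RefSeq promoters held this motif. Mmp12 had an ETS match 88 bases before its start site, a motif held by 2.4% of promoters. Ctsd, whose window is not printed, had an E-box 98 and another 245 bases before its start site, against 6.0% of promoters with any. None of the 8 windows held the TEAD letters, found in 12.6% of promoters, or TATAAA, found in 12.4%, and Gpnmb had no match of any kind. The unprinted windows of Cd9, Ctsd and Lgals3 hold 250, 211 and 47 bases of an annotated exon. Those of Lgals3 and Cd63 lie inside the annotated gene, as does the Ctsd E-box at 98 bases. There, a match or its absence does not describe sequence upstream of the annotated gene.

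Among the surface receptors, Trem2 (ENSMUSG00000023992, chr17:48346401-48354147, plus strand) encodes the lipid-sensing receptor of these macrophages. It had 0.396, 0.699 and 1.21 TPM in the WT C57BL/6 group, and in YAPKO livers it had 14.8, 20.4 and 25.5 TPM. WT mixed livers had 0.306, 0.545 and 1.14 TPM and YAPKO TAZHET livers 16.2, 16.6 and 20.3 TPM. Every model liver was far above every WT liver. The log2 fold change was 3.33 (SE 0.22, limma adjusted p = 2.7e-05) in YAPKO and 3.31 (SE 0.20, adjusted p = 1.69e-05) in YAPKO TAZHET. Trem2 entered both fits through the model livers, so these p-values are a description.

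Gpnmb (ENSMUSG00000029816, chr6:49036546-49070929, plus strand) encodes a membrane glycoprotein that is prominent in lipid-loaded and lysosomally stressed macrophages. Its level was 0.023, 0.0491 and 0.0743 TPM in WT C57BL/6 and 0.0253, 0.045 and 0.0769 TPM in WT mixed livers. In the model livers it was 4.67, 7.64 and 13.1 TPM (YAPKO) and 4.01, 4.23 and 11.7 TPM (YAPKO TAZHET). A single liver in each model, LM74 and LM225, stood well above the other two. The log2 fold change was 2.91 (SE 0.27, limma adjusted p = 0.000145) in YAPKO and 2.58 (SE 0.31, adjusted p = 0.000441) in YAPKO TAZHET. Both p-values are a description, because Gpnmb was tested only through the livers in which it was high. The fold changes depend on the constant added before the logarithm, and were 5.50 and 5.13 with 0.1 in place of 1.

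Cd9 (ENSMUSG00000030342, chr6:125460266-125494791, minus strand) encodes a tetraspanin, a membrane protein that organises other proteins at the cell surface, and is used to tell scar-associated from resident liver macrophages. It was the most abundant of the surface markers, at 20.8, 22.1 and 27.8 TPM in WT C57BL/6 and 14.2, 31.6 and 32.3 TPM in WT mixed livers. The YAPKO livers had 273, 293 and 330 TPM and the YAPKO TAZHET livers 263, 307 and 357 TPM. These values did not overlap, and scaled TPM was 9.92-fold higher in YAPKO and 9.56-fold higher in YAPKO TAZHET. The log2 fold changes were 3.26 (SE 0.15, limma adjusted p = 5.66e-06) and 3.28 (SE 0.29, adjusted p = 0.000109).

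Itgax (ENSMUSG00000030789, chr7:128129547-128150657, plus strand) encodes CD11c, the integrin alpha chain of dendritic cells and of activated macrophages. Its levels were the lowest among the 10 genes in the model livers: 2.26, 3.25 and 3.7 TPM in YAPKO and 1.29, 1.73 and 2.59 TPM in YAPKO TAZHET, against 0.209, 0.318 and 0.421 TPM in WT C57BL/6 and 0.518, 0.599 and 0.674 TPM in WT mixed livers. The 2 WT groups did not overlap either, with WT mixed higher. The log2 fold change was 1.43 (SE 0.17, limma adjusted p = 0.00058) in YAPKO and 0.66 (SE 0.18, adjusted p = 0.0202) in YAPKO TAZHET, or 2.62 and 1.16 with a constant of 0.1. Itgax too passed the filter through the model livers, so its p-values are a description. The call in YAPKO TAZHET was lost with quantile normalization (adjusted p = 0.108), without the WT mixed liver LM226 (0.0603) and without the YAPKO TAZHET liver LM251 (0.0591), over a range of 0.00819 to 0.108 across 12 alternatives.

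**Figure D2:**
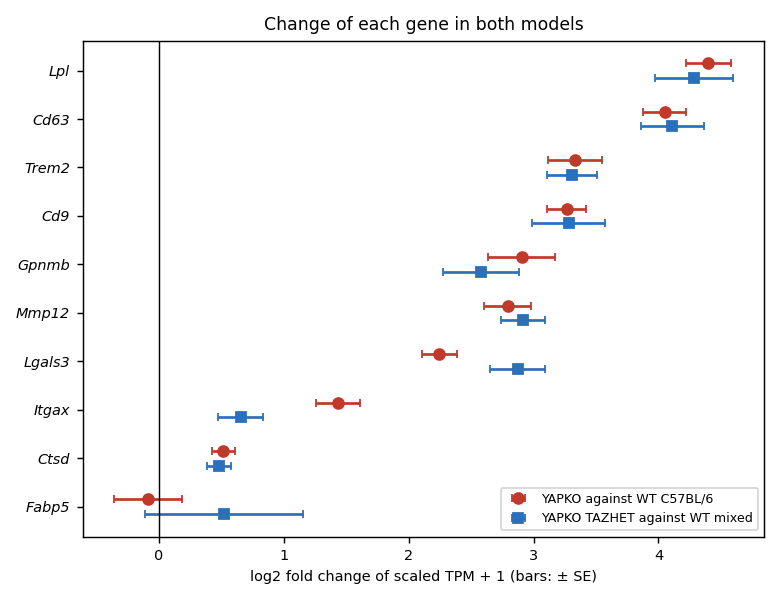
Log2 fold change of each gene in YAPKO (circles) and YAPKO TAZHET (squares) against WT littermates, on the log2(scaled TPM + 1) scale, with bars of 1 SE. Lpl and Cd63 lie above 4 in both models, Ctsd near 0.5, and Fabp5 spans 0.

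Mmp12 and Lgals3 encode secreted proteins, as does Lpl, which is given with the lipid-handling members. Mmp12 (ENSMUSG00000049723, chr9:7344381-7369499, plus strand) encodes macrophage elastase, a protease that degrades matrix. It stood at 0.0279, 0.111 and 0.181 TPM in WT C57BL/6 and at 0.0285, 0.203 and 0.231 TPM in WT mixed livers, and was nearly silent in all 6. It reached 5.46, 7.96 and 10.2 TPM in YAPKO and 7.31, 7.67 and 11.8 TPM in YAPKO TAZHET livers. On the log2 scale it rose by 2.79 (SE 0.19, limma adjusted p = 3.56e-05) and 2.92 (SE 0.17, adjusted p = 1.66e-05), or by 5.04 and 4.99 with a constant of 0.1. Its p-values are likewise a description, as it was tested through the model livers.

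Lgals3 (ENSMUSG00000050335, chr14:47367751-47386160, plus strand) encodes galectin-3, a sugar-binding protein released by activated macrophages and also made by epithelia. The WT C57BL/6 livers had 4.27, 5.47 and 5.54 TPM and the WT mixed livers 2.45, 4.96 and 5.14 TPM. YAPKO livers had 31.0, 35.6 and 39.1 TPM and YAPKO TAZHET livers 38.9, 45.3 and 47.8 TPM, so that both models stood clear of their WT littermates. Scaled TPM was 5.4-fold higher in YAPKO (log2 2.25, SE 0.14, limma adjusted p = 2.48e-05) and 8.43-fold higher in YAPKO TAZHET (log2 2.87, SE 0.22, adjusted p = 5.66e-05).

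The lysosomal members differed in size. Cd63 (ENSMUSG00000025351, chr10:128900989-128912822, plus strand) encodes the tetraspanin of late endosomes, lysosomes and exosomes. It went from 3.64, 3.9 and 5.99 TPM in WT C57BL/6 to 91.5, 109 and 138 TPM in YAPKO livers, and from 2.58, 4.35 and 6.57 TPM in WT mixed to 107, 107 and 116 TPM in YAPKO TAZHET livers. The YAPKO TAZHET livers lay close together, with a coefficient of variation of 4.37%. The log2 fold changes were 4.05 (SE 0.17, limma adjusted p = 3.58e-06) and 4.11 (SE 0.25, adjusted p = 1.78e-05), each a 19.5-fold difference in scaled TPM.

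Ctsd (ENSMUSG00000007891, chr7:142375911-142388038, minus strand) encodes cathepsin D, the main aspartic protease of lysosomes, and was the most abundant of the 10 genes in every group. WT C57BL/6 livers had 288, 292 and 301 TPM, WT mixed livers 294, 297 and 341, YAPKO livers 513, 550 and 553, and YAPKO TAZHET livers 524, 531 and 573 TPM. All model livers were above all WT livers, yet the rise was the smallest of the 9. It was 0.52 (SE 0.09, limma adjusted p = 0.00352) and 0.48 (SE 0.10, adjusted p = 0.00522) on the log2 scale, and 0.87 and 0.80 without scaling. Genes with larger rises made up 17.7% and 18.4% of those tested.

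The lipid-handling members were Lpl and Fabp5. Lpl (ENSMUSG00000015568, chr8:68880491-68907448, plus strand) encodes lipoprotein lipase, which releases fatty acids from circulating triglyceride and which adult hepatocytes express little. It was at 5.41, 5.8 and 6.59 TPM in WT C57BL/6 and at 4.15, 8.03 and 10.3 TPM in WT mixed livers. YAPKO livers had 135, 182 and 250 TPM and YAPKO TAZHET livers 139, 206 and 250 TPM, the highest liver being 1.86 and 1.80 times the lowest. Scaled TPM was 24.6-fold higher in YAPKO (log2 4.40, SE 0.18, limma adjusted p = 2.95e-06) and 21.5-fold higher in YAPKO TAZHET (log2 4.29, SE 0.31, adjusted p = 4.36e-05).

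Fabp5 (ENSMUSG00000027533, chr3:10012548-10016607, plus strand) encodes the epidermal fatty acid binding protein, a carrier inside the cell. It was already abundant in WT C57BL/6 livers, at 49.4, 78.0 and 88.7 TPM, and stood at 66.3, 71.0 and 128 TPM in YAPKO livers. The WT mixed livers ranged from 8.05 through 37.9 to 76.1 TPM and the YAPKO TAZHET livers from 49.6 through 52.5 to 55.7 TPM. Groups overlapped in both pairs, and the log2 fold change was -0.09 (SE 0.28, limma adjusted p = 0.832) and 0.52 (SE 0.63, adjusted p = 0.547). The latter value rests on the WT mixed liver LM227, without which it was -0.34. Fabp5 has 5 processed pseudogenes with over 90% identity to at least 30% of its transcript, none with a value in the tables, so its level is uncertain.

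Near copies also exist for 3 other members: Cd63-ps, at 98.5% identity over 73.2% of the Cd63 transcript, Cd9-ps, at 91.1% over 54.2% of the Cd9 transcript, and the protein-coding Gm49369, identical to 31.5% of the Ctsd transcript and at most at 1.62 TPM. How reads shared with a near copy were assigned was not given in the sources used here.

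The order of the levels changed between WT and model livers. In WT C57BL/6 livers the means ran from Ctsd (293 TPM) through Fabp5 (72.0) and Cd9 (23.6) to Lpl (5.93), Lgals3 (5.09) and Cd63 (4.51), which overlapped, and on to Trem2 (0.767), Itgax (0.316), Mmp12 (0.107) and Gpnmb (0.0488). Trem2 overlapped with Itgax, and Mmp12 with Gpnmb. In YAPKO livers Cd9 (299 TPM), Lpl (189) and Cd63 (113) stood above Fabp5 (88.4), although Lpl and Cd63 overlapped with each other, as did Cd63 and Fabp5. Lgals3 (35.2) and Trem2 (20.2) followed, then Gpnmb (8.46) and Mmp12 (7.86), which overlapped, and last Itgax (3.07). The order of means in YAPKO TAZHET livers differed from this only in that Mmp12 (8.92) came before Gpnmb (6.65), and these overlapped.

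In some groups 1 liver was highest or lowest for most of the genes, by TPM before scaling. The scaling factor of LM74 was 1.219, against 1.085 and 1.098 in the other YAPKO livers, so scaling lowers its values most. LM74 was the highest YAPKO liver for 8 of the 10 genes, and LM227 the lowest WT mixed liver for 9 of 10. LM226 was the highest WT mixed liver for 7 of 10. The others were less even: LM192 was highest for 6 and lowest for 3 in WT C57BL/6, and in YAPKO TAZHET LM225 was highest for 5 and LM251 for 4. The summed level of 16 general macrophage markers was also highest in LM74 among YAPKO livers (1750 TPM against 1230 and 1430), and lowest in LM227 (326 TPM) and highest in LM226 (640 TPM) among WT mixed livers. In WT C57BL/6 it was highest in LM75 (493 TPM) and not in LM192 (461 TPM). The part of the macrophage markers in these differences was not tested.

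Whether the change differed between the models was tested by its own contrast over all 12 livers. None of the 10 genes passed in limma, 2 had an unadjusted p under 0.05, and 0.0576% of 12159 genes were called. The largest differences were those of Itgax, whose rise was greater in YAPKO by 0.79 (95% interval 0.25 to 1.32, unadjusted p = 0.00743, adjusted p = 0.897), and Lgals3, whose rise was smaller in YAPKO by 0.63 in size (interval of the signed difference -1.25 to -0.01, unadjusted p = 0.0468, adjusted p = 0.999). For Trem2 the interval was -0.65 to 0.73, for Cd63 -0.80 to 0.67, and for Ctsd -0.23 to 0.28, so differences of those sizes remain possible. Of the genes in the pathway and cell type lists, none passed for this difference in limma, where 555 of all genes had an unadjusted p under 0.05. Between the WT groups, 6 of the genes could be tested, none passed in limma, none had an unadjusted p under 0.05, and 0.216% of 11126 genes were called. The largest WT difference was in Fabp5, at -1.30 (SE 0.65, limma adjusted p = 0.89) for WT mixed minus WT C57BL/6, and it was -0.45 without LM227.

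Most general macrophage markers rose in the same livers. Of 16 general macrophage genes, 14 were higher in YAPKO and 15 in YAPKO TAZHET, against 18.8% and 19.2% of all genes, and none was lower. Their median log2 fold change was 1.14 and 1.21 against -0.04 for all genes. Their summed level was 381 to 493 TPM in WT C57BL/6, 326 to 640 in WT mixed, 1230 to 1750 in YAPKO and 1350 to 1610 TPM in YAPKO TAZHET livers. Cybb, the phagocyte NADPH oxidase subunit, changed most, by 2.99 (SE 0.20) and 3.58 (SE 0.18) on the log2 scale. Cd68, a lysosomal protein of macrophages, rose by 1.54 and 1.73, and Adgre1, the gene for F4/80, by 1.16 and 1.06. None of the 16 markers was at 0 in any liver.

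To set the 10 genes beside the macrophage signal of the same liver, the TPM of each was divided by the geometric mean TPM of these 16 genes, a ratio that scaling cannot change. The geometric mean was 9.51 to 18 TPM in WT and 32.6 to 51.0 TPM in model livers. The ratio was above that of all WT littermates for 8 of the 10 genes in YAPKO, which held for 4.07% of all genes, and for 7 of 10 in YAPKO TAZHET, against 3.42%. Trem2, Gpnmb, Itgax and Mmp12, tested only because they were high in the model livers, are 4 of the 8 and 3 of them are among the 7, so these counts too are a description. Trem2 went from 0.0600 ± 0.0306 (SD, n = 3) in WT C57BL/6 to 0.497 ± 0.130 in YAPKO, and from 0.0451 ± 0.0162 in WT mixed to 0.418 ± 0.0617 in YAPKO TAZHET. For Lpl the ratio rose 9.54-fold and 8.91-fold, for Cd63 7.7-fold and 7.87-fold, for Cd9 3.95-fold in each model, and for Lgals3 2.16-fold and 3.41-fold.

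For Itgax the models gave unlike values, whose difference was not tested on this scale. Its ratio was 0.0740 ± 0.00553 in YAPKO against 0.0246 ± 0.0059 in WT C57BL/6, but 0.0433 ± 0.0109 in YAPKO TAZHET against 0.0478 ± 0.0213 in WT mixed livers, where the groups overlapped. Ctsd was below all WT littermates in both models, at 0.575 and 0.536 of the WT ratio, and Fabp5 in YAPKO, as were 82.7% of all genes in YAPKO and 83.2% in YAPKO TAZHET. The counts above and below were the same with the summed level of the 16 genes, or of 9 Kupffer cell genes, as divisor.

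**Figure D3:**
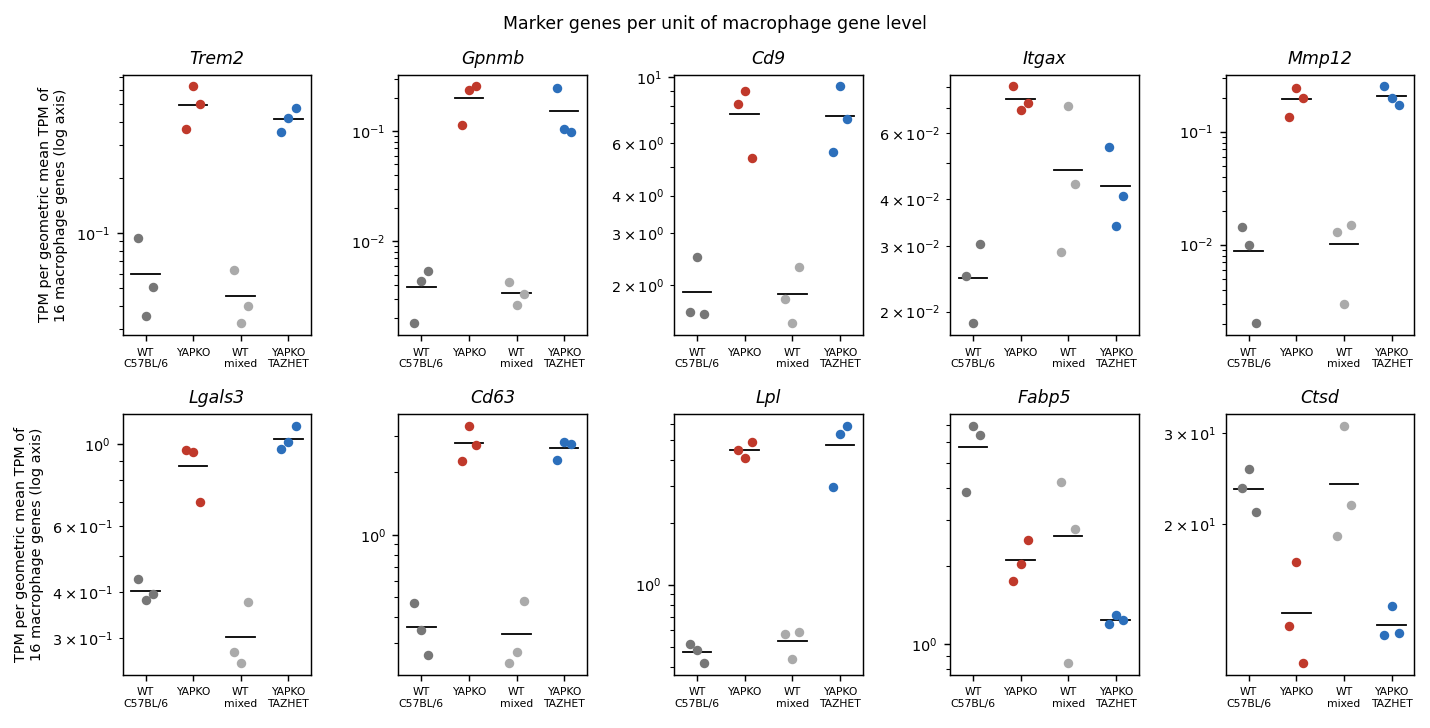
TPM of each gene divided by the geometric mean TPM of 16 general macrophage genes in the same liver, on a log axis, with a point for each mouse and a line at the mean of 3. Trem2, Gpnmb, Cd9, Mmp12, Lgals3, Cd63 and Lpl lie above WT littermates in both models, Itgax in YAPKO, and Ctsd lies below.

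Genes for partners of TREM2, inside and outside the cell, rose in part with it. TREM2 signals through the adaptor TYROBP and the kinase SYK, binds lipoproteins such as APOE and clusterin, and is cut by the proteases ADAM10 and ADAM17. Of 14 listed genes of this pathway, 11 of the 13 tested were higher in YAPKO and 8 of the 11 tested in YAPKO TAZHET, and none was lower in either. Of all genes, 18.8% and 19.2% were higher. Tyrobp rose by 1.27 (SE 0.20, limma adjusted p = 0.00187) and 1.64 (SE 0.22, adjusted p = 0.000946), from 13.8 to 31.2 TPM in WT to 58.4 to 98.5 TPM in model livers. Clu, the gene for clusterin, changed most, by 2.30 and 2.19, from 854 to 1020 TPM to between 5130 and 6760 TPM. Its level was above the sum of the 16 general macrophage genes, 326 to 640 TPM in WT and 1230 to 1750 TPM in model livers. Which cells made it was not tested. Apoe, a major hepatocyte product, was at 19000 to 23500 TPM in all groups and passed in neither model, with -0.35 (SE 0.17) and -0.27 (SE 0.17). Ms4a7, of a gene cluster active in macrophages, rose by 1.66 in YAPKO and had 0.758, 1.91 and 4.19 TPM in YAPKO TAZHET livers, where it was not tested. Of the other TREM family members only Treml4 was tested, and it rose by 1.33 and 1.5.

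Other genes of the lipid-associated macrophage set went mostly the same way. Of 36 listed, 34 were tested, of which 25 were higher and 1 lower in YAPKO, and 28 higher and 2 lower in YAPKO TAZHET. The shares of all genes were 18.8% and 19.2% higher, and 17.9% and 19% lower. Spp1, the gene for osteopontin, rose by 3.04 (SE 0.33, limma adjusted p = 0.000325) in YAPKO and 1.33 (SE 0.28, adjusted p = 0.0071) in YAPKO TAZHET. Its levels were 303, 323 and 725 TPM in the former and 84.4, 168 and 208 TPM in the latter, against 26.0 to 50.7 TPM in WT. Anxa5, a binder of exposed phosphatidylserine, rose by 2.37 and 1.72, Capg, an actin-capping protein of macrophages, by 1.75 and 1.95, and the chemokine gene Ccl6 by 1.78 and 2.30. Igf1, which hepatocytes make in large amounts, fell by 1.10 and 0.97, and Plin2, which coats lipid droplets, was at -0.52 (SE 0.14, limma adjusted p = 0.0202) in YAPKO TAZHET. The call of Plin2 was lost without scaling (adjusted p = 0.244), with quantile normalization (0.409) and without LM227 (0.0682), LM230 (0.0646) or LM251 (0.0822).

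**Figure D4:**
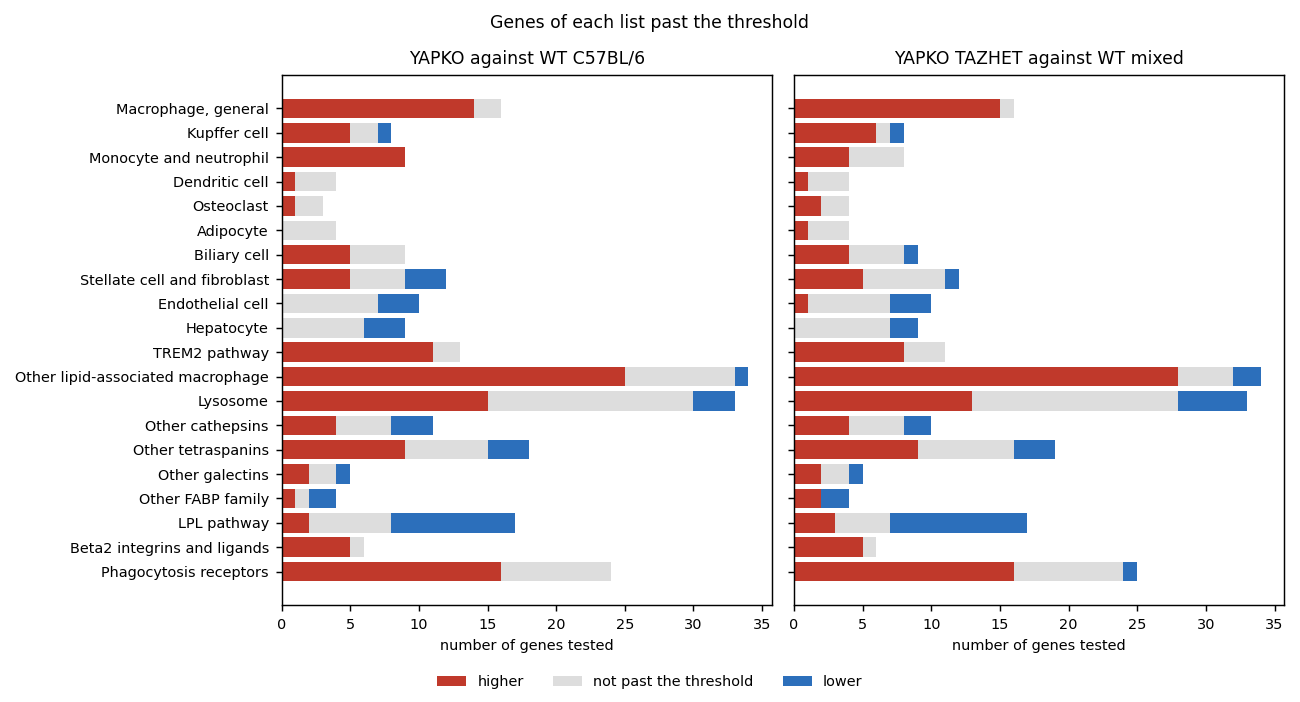
Number of tested genes of each list that were higher (red), lower (blue) or not past the threshold (grey) in YAPKO and YAPKO TAZHET against WT littermates. General macrophage, TREM2 pathway and other lipid-associated macrophage genes were mostly higher, and 9 and 10 of 17 LPL pathway genes were lower.

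Lysosomal genes outside the 10 moved less evenly. Of 33, 15 were higher and 3 lower in YAPKO, and 13 higher and 5 lower in YAPKO TAZHET, with medians of 0.24 and 0.23, and without scaling 23 and 21 were higher and none lower. With scaling, 18.8% and 19.2% of all genes were higher, and 17.9% and 19% were lower. The higher count in YAPKO TAZHET was 7 without the WT mixed liver LM226 and 7 without LM250, and the lower counts went to 0 or 1 in YAPKO without any 1 liver and ranged from 0 to 8 in YAPKO TAZHET. Gusb, the gene for beta-glucuronidase, rose by 1.14 and 1.10, and Sqstm1, the autophagy receptor p62, by 1.10 and 0.88. Of the transcription factors of the family that drives lysosomal genes, Tfe3 was higher in both models. It was at 0.46 (SE 0.11, limma adjusted p = 0.0112) and 0.41 (SE 0.11, adjusted p = 0.0211), and was not followed over the alternatives. Mitf was at 0.47 (SE 0.16, limma adjusted p = 0.0443) and 0.29 (SE 0.14, adjusted p = 0.136), and Tfeb at -0.48 (SE 0.15, adjusted p = 0.0402) and -0.29 (SE 0.13, adjusted p = 0.121). In YAPKO Mitf and Tfeb each passed in 5 of 12 alternatives and in 1 of 6 fits that left out a mouse, Mitf only without LM193 and Tfeb only without LM189, with adjusted p up to 0.275 for Mitf and 0.327 for Tfeb. Among the other cathepsins, Ctsk, a collagen-degrading protease, rose by 2.26 and 1.23 and Ctss, of antigen-presenting cells, by 1.55 and 1.5, while Ctsc was lower, by -0.74 and -0.70, and not past the threshold without scaling (adjusted p = 0.241 and 0.111), nor in YAPKO without LM193, LM75, LM189 or LM191 (0.0914 to 0.116).

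The protein families of the members did not move as blocks. Of the other tetraspanins, 9 of 18 were higher and 3 lower in YAPKO, and 9 of 19 higher and 3 lower in YAPKO TAZHET. Of all genes, 18.8% and 19.2% were higher. The lower counts were near the share of all genes that were lower, 17.9% and 19%. Tspan8, also a bile duct gene, rose by 3.16 and 3.5, Cd53, of leukocytes, by 1.15 and 1.39, and Tspan33 fell by 1.37 and 1.43. Cd37, a tetraspanin of B cells and other leukocytes, rose by 1.51 in YAPKO TAZHET and was at 0.22 (SE 0.18, limma adjusted p = 0.369) in YAPKO. Of the other galectins Lgals1 rose by 1.99 and 1.46, and Lgals3bp, a binding partner of galectin-3, by 0.79 and 0.59. In the FABP family, Fabp1, the liver form, fell by 2.69 (SE 0.24, adjusted p = 0.00011) and 2.72 (SE 0.19, adjusted p = 3.12e-05), from 6270 to 12200 TPM in WT to 1310 to 1900 TPM in model livers, and Fabp2 fell by 1.91 and 1.83. Fabp4, of adipocytes and macrophages, rose by 1.16 in YAPKO TAZHET and was at 0.78 (SE 0.32, adjusted p = 0.0882) in YAPKO. Fabp7, the brain form, rose by 0.79 (adjusted p = 0.0681 without LM192 and 0.0674 without LM193) and 1.49. Fabp6, Fabp9 and Pmp2 were listed at 0 in all 12 livers.

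The genes around LPL moved apart from Lpl itself. LPL is held on capillary walls by GPIHBP1, needs apolipoprotein C2 as a cofactor, and is inhibited by angiopoietin-like proteins and apolipoprotein C3. Of 17 such genes, 2 were higher and 9 lower in YAPKO, where 18.8% of all genes were higher and 17.9% lower. In YAPKO TAZHET 3 were higher and 10 lower, against 19.2% and 19% of all genes. The medians were -0.49 and -0.50, and without scaling 4 were lower and 4 and 3 higher. In YAPKO TAZHET the lower count was 6 without LM227 or LM251 and 5 with quantile normalization. Apoc2 rose by 1.22 (SE 0.12) and 1.09 (SE 0.32), and Cd36, a fatty acid and lipoprotein receptor, by 1.63 and 0.59. In YAPKO TAZHET both passed in 8 of 13 alternatives, Apoc2 not without LM226, LM227, LM250 or LM251 (limma adjusted p up to 0.0947) and Cd36 not without LM226, LM230, LM225 or LM251 (up to 0.12). Lipg, the gene for endothelial lipase, fell by 1.65 (SE 0.23, limma adjusted p = 0.00111) and 2.53 (SE 0.37, adjusted p = 0.00136). Angptl4 was at -1.26 (SE 0.42, adjusted p = 0.0464) and -1.24 (SE 0.38, adjusted p = 0.034), and was past the threshold in 5 of 13 alternatives in each model. Its calls were lost, among others, without LM193, LM75, LM191 or LM74 in YAPKO (adjusted p up to 0.126) and without LM227, LM230, LM250 or LM251 in YAPKO TAZHET (up to 0.11). Angptl8, a hepatocyte regulator of LPL, fell by 2.0 (SE 0.45, adjusted p = 0.00963) in YAPKO TAZHET and was at -0.64 (adjusted p = 0.259) in YAPKO. It had 78.8, 256 and 330 TPM in WT mixed, 49 to 68.4 TPM in YAPKO TAZHET and 48.1 to 135 TPM in WT C57BL/6 livers. Gpihbp1 was at -0.49 (SE 0.12, adjusted p = 0.014) and -0.33 (SE 0.21, adjusted p = 0.241), and at -0.16 without scaling in YAPKO (adjusted p = 0.411).

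**Figure D5:**
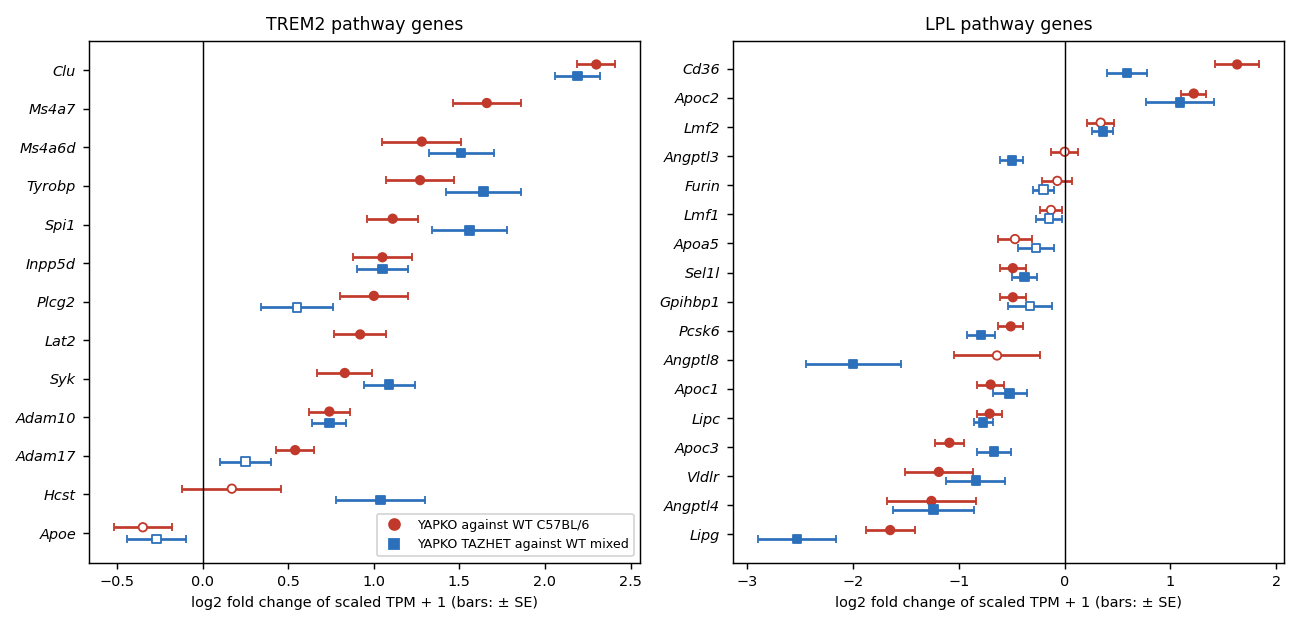
Log2 fold change on the log2(scaled TPM + 1) scale, with bars of 1 SE, of the tested TREM2 pathway genes (left) and LPL pathway genes (right) in YAPKO (circles) and YAPKO TAZHET (squares). Filled points passed the threshold, TREM2 pathway points lie right of 0 except Apoe, and LPL pathway points lie left of or at 0 except Cd36, Apoc2 and Lmf2.

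The integrin partners of CD11c and the receptors of phagocytosis rose in number. Beside the higher counts here stand 18.8% of all genes in YAPKO and 19.2% in YAPKO TAZHET. Of 6 tested beta2 integrin genes and ligands, 5 were higher in each model. Itgb2, the shared beta chain, rose by 1.14 (SE 0.18) and 1.67 (SE 0.20), Icam1, a ligand, by 1.63 and 1.47, and Itgam, the gene for CD11b, by 1.20 in YAPKO and 0.54 in YAPKO TAZHET (limma adjusted p = 0.0452, lost in 7 of 12 alternatives, among them 0.214 with quantile normalization and 0.126 without LM227, and also lost without LM226, LM225, LM250 or LM251). Of the phagocytosis receptors and bridging proteins, 16 of 24 were higher and none lower in YAPKO, and 16 of 25 higher and 1 lower in YAPKO TAZHET. Cd14, the lipopolysaccharide co-receptor, rose by 4.39 (SE 0.19, adjusted p = 4.1e-06) and 4.46 (SE 0.19, adjusted p = 2.75e-06), and Mfge8, which bridges dying cells to phagocytes, by 3.95 and 3.76. Gas6, a ligand of MERTK and AXL, fell by 0.62 in YAPKO TAZHET (adjusted p = 0.164 without scaling) and was at 0.29 (SE 0.22) in YAPKO.

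Kupffer cell markers are set beside all genes, of which 18.8% and 19.2% were higher in YAPKO and YAPKO TAZHET, and 17.9% and 19% lower. Of 8 tested, 5 were higher and 1 lower in YAPKO, and 6 higher and 1 lower in YAPKO TAZHET. Their sum was 193 to 398 TPM in WT, 492 to 766 in YAPKO and 748 to 962 TPM in YAPKO TAZHET livers. Marco, a scavenger receptor, rose by 2.71 and 2.84, Cd5l by 1.34 and 1.63, and Clec4f, which defines Kupffer cells, by 0.52 (SE 0.12, limma adjusted p = 0.0132) and 0.97 (SE 0.22, adjusted p = 0.00979), the YAPKO call of Clec4f being lost in 3 of 13 alternatives, among them without LM192 or LM193 (adjusted p = 0.0501 and 0.0516). Timd4, a marker of embryonically derived Kupffer cells, was at -0.32 (SE 0.29, adjusted p = 0.414) and 0.40 (SE 0.26, adjusted p = 0.253), and Cd163 was lower, by -1.58 and -0.92. In YAPKO TAZHET the Cd163 call held in 7 of 13 alternatives, and not without LM226, LM230, LM250 or LM251 or without scaling (limma adjusted p up to 0.102).

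Markers of other cells that can express some of the 10 genes moved too, and their part in the results was not tested. Monocyte and neutrophil markers were higher for 9 of 9 tested in YAPKO and 4 of 8 in YAPKO TAZHET (7 without scaling), with sums of 12.6 to 23.9 TPM in WT, 84.5 to 109 in YAPKO and 42.7 to 114 TPM in YAPKO TAZHET livers. Cx3cr1, Ccr2, Retnlg and Chil3 were under 1 TPM in every WT liver and were tested only where they were high in the model livers, so these counts and the number tested are a description. Cx3cr1, a chemokine receptor of monocytes, rose by 2.64 and 1.97. Dendritic cell markers summed to 8.13 to 12.3 TPM in WT and 13.8 to 21.9 TPM in model livers, and 1 of 4 tested was higher in each model: Cd83, by 1.08, in YAPKO and Batf3, by 1.34, in YAPKO TAZHET (limma adjusted p = 0.0774 without LM251). Of osteoclast genes 1 of 3 and 2 of 4 were higher, Ctsk in both models, and Calcr was listed at 0 throughout. Ctsk is also counted among the cathepsins and the lipid-associated macrophage genes. Beside the higher counts of these lists stand 18.8% of all genes in YAPKO and 19.2% in YAPKO TAZHET. Adipocyte markers summed to 9.23 to 35.4 TPM in WT and 31.3 to 46.8 TPM in model livers, with Adipoq, Plin1, Lep and Retn under 1 TPM in all 12.

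Of the biliary markers, 5 of 9 were higher in YAPKO and 4 of 9 in YAPKO TAZHET, with sums of 21.1 to 36.7 TPM in WT and 76.8 to 129 TPM in model livers. Cldn7, a claudin of epithelia, rose by 2.82 and 3.17, whereas Krt19, a defining duct keratin, was at 0.20 (SE 0.40) and -1.0 (SE 0.49), and Epcam fell by 1.48 in YAPKO TAZHET. Stellate cell and fibroblast markers had 5 of 12 higher in each model, with 3 and 1 lower and sums of 300 to 343 TPM in WT and 410 to 604 TPM in model livers, and Col1a1 rose by 4.02 and 3.11. Ecm1 was lower in both models, at -1.53 and -1.05, the latter past the threshold in 7 of 13 alternatives. Rgs5 (-0.92) and Lrat (-0.84) passed as lower in YAPKO only, and were at -0.19 and -0.47 in YAPKO TAZHET. Acta2 passed in neither model, at 0.42 and -0.85. Endothelial markers had 0 of 10 higher and 3 lower in YAPKO, and 1 higher and 3 lower in YAPKO TAZHET, with sums of 149 to 210 and 143 to 222 TPM. Hepatocyte markers had none higher, with 3 of 9 lower in YAPKO and 2 in YAPKO TAZHET, Ttr among them in both, by -1.13 and -0.93. Beside the counts of these lists stand 18.8% of all genes higher in YAPKO and 19.2% in YAPKO TAZHET, and 17.9% and 19% lower.

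The genes whose pattern over the 12 livers was most like that of a member were found by the root mean square difference of centred log2(scaled TPM + 1) values among 12158 genes. For Trem2 they were Anxa2 (0.17), an annexin, Timp1 (0.27), an inhibitor of matrix proteases, and Mtmr11 (0.28). Anxa2 had 10.4 to 18.6 TPM in WT and 138 to 208 TPM in model livers. For Gpnmb they were Igdcc4 (0.24), Mmp12 (0.29) and Slc13a5 (0.31), a citrate transporter. Igdcc4 shared the liver-to-liver pattern, with 4.1, 4.72 and 13.8 TPM in YAPKO and 5.14, 6.04 and 13.8 TPM in YAPKO TAZHET livers, highest in LM74 and LM225. For Cd9 they were C6 (0.22), a complement component, Pygb (0.30), a glycogen phosphorylase, and Nid1 (0.30), of basement membranes. For Lpl they were Cd14 (0.25), Cd63 (0.33) and Mfge8 (0.39). These points share groups and libraries, and the values describe likeness only.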

How the data were processed

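Paired-end RNA libraries of whole liver, 1 for each of 12 mice, were processed by the authors with CLC Genomics Workbench, using the mouse assembly GRCm38.p6 for alignment. The deposited tables hold TPM values per gene, and only these were used. Columns of the authors' own comparisons (fold changes and p-values) were not used. TPM keeps no depth, so depth per library is unknown and no interval for counting error is given. Each library is a separate mouse, and p-values set group differences against the spread between mice, which limma moderates over all genes. With 1 library for each mouse, this spread includes technical variation. The study tested counts, which were not used here, so limma on log2 values took the place of a count test.

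TPM values were scaled by trimmed means of log ratios (30% and 5% trimmed), a gene entered a fit where 3 or more of its libraries reached 1 TPM, and log2(scaled TPM + 1) was tested in limma 3.58.1 (R 4.3.3) with a variance trend, two-sided, with Benjamini-Hochberg adjusted p-values over all tested genes. The script was tested on simulated data. Fold changes on this scale understate changes of low genes. Samples were grouped by the labels. Alternatives were a pseudocount of 0.1, unscaled TPM, quantile normalization, omitting the filter, raising it to 5 TPM, robust shrinkage, fitting all 12 libraries together and leaving out each mouse. The ratio to the macrophage genes and its other divisors were chosen after seeing the data. Members, lists and motifs were chosen with earlier results of these data known. Named genes are the 10 members, the largest 2 rises and falls past the threshold of each list in each model, markers at 0, 13 fixed genes and the 3 genes most like Trem2, Gpnmb, Cd9 and Lpl. Not every gene this rule allows is named, and some others, among them Tfe3, are named to complete a family or list. Coordinates are those of the deposited tables on GRCm38, and all 10 members had the same coordinates in GENCODE M21. Near copies were found with blastn 2.17.0 among GENCODE M21 transcripts.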

Additional observations from a re-analysis of the deposited data

How the results depend on the processing

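Across the alternatives the count of members called was 7 to 9 in YAPKO and in YAPKO TAZHET, the 7 coming with a minimum of 5 TPM. At that minimum Gpnmb and Itgax did not pass the filter and were not tested. When each mouse was left out in turn it was 9 in YAPKO and 8 to 9 in YAPKO TAZHET, and it was 0 under all alternatives for the difference between the models and between the WT groups. All calls of members that were tested kept their direction. The only such call lost was that of Itgax in YAPKO TAZHET, under the 3 alternatives given with it. Among other named genes, 57 values in YAPKO and 97 in YAPKO TAZHET were no longer past the threshold under an alternative. Alb in YAPKO went from -0.74 to 0 with quantile normalization. That method gives genes of equal rank the same value in every library, so this 0 does not measure the change of Alb. Calls over all genes for the difference between the models went from 7 to 2 without a filter and to 21 without LM74, and to 15 without LM225. No paired analysis was possible because the labels do not say which WT littermate belongs to which knockout litter, so an effect of litter was not tested. TPM gives no depth, so levels near those of Gpnmb and Mmp12 in WT livers carry an unknown counting error.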
